A study of Zea mays with 96 samples.

Results

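The genes *dek1* (Zm00001d028818), *cr4* (Zm00001d023425), and *thk1* (Zm00001d027278) are known regulators of aleurone cell fate and layer number in maize. They were taken by gene identifier for that known role and not by a rule on measured values, though earlier results of these data were known at the time. They are 3 of the 46430 genes counted. All 3 were detected in every library and passed the low-count filter in every comparison.

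The aleurone is the outer epidermal layer of the endosperm. DEFECTIVE KERNEL1 (*dek1*) is a membrane-spanning calpain protease and CRINKLY4 (*cr4*) is a receptor-like kinase, and both are required for aleurone fate. Kernels that lose *dek1* function form starchy endosperm cells at the surface in place of aleurone. THICK ALEURONE1 (*thk1*) encodes NOT1, the scaffold subunit of the CCR4-NOT complex that shortens mRNA poly(A) tails. It limits the aleurone, since *thk1* mutants form many aleurone layers, and it acts genetically downstream of *dek1*.

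Transcripts of whole developing endosperm were sequenced in 8 homozygous genotypes of the W22 inbred at 8, 12, and 16 d after pollination (DAP). The 7 mutants were the single mutants *nkd1*, *nkd2*, and *o2*, the double mutants *nkd1 o2*, *nkd2 o2*, and *nkd1 nkd2*, and a triple mutant carrying all of them, and the reference was the wild type (WT). They carry *nkd1-Ds*, a Ds transposon allele, *nkd2-null*, and a mutant allele of *o2*, and all of them, WT included, were selected from selfed progeny of the triple heterozygote. *nkd1* and *nkd2* encode paired INDETERMINATE DOMAIN transcription factors needed for normal aleurone, and *o2* encodes the bZIP activator of zein storage protein genes, so the comparisons ask whether these regulators change transcripts of the aleurone fate genes. Each of the 24 groups had 4 libraries, each made from a pool of 3 endosperms from a separate ear. The 7 mutants of a timepoint were all set against the same 4 WT libraries, so their differences from WT are not independent of each other. The samples were whole endosperm, in which the aleurone is a small part of the tissue, and a change in the number of cells that express a gene and a change of its transcript in each cell cannot be told apart.

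The libraries held 31327665 to 68052826 reads on genes (median 50009154). At that depth *dek1* had 2479 to 9684 reads per library, *cr4* 169 to 1988, and *thk1* 5312 to 18355. The labels fitted the genes they name: *o2* transcripts were lower than in WT in all 4 *o2* genotypes and *nkd2* transcripts in all 4 *nkd2* genotypes at each timepoint, whereas *nkd1* transcripts were reduced rather than lost in *nkd1* mutants and did not pass the test in *nkd1 o2* at 16 DAP (log2FC = -0.25, adjusted P = 0.154). The marker list for aleurone cells could not be matched to the identifiers, so the aleurone content of the libraries was not measured.

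Levels are given in CPM, read counts scaled to a common library total, after trimmed mean of M values (TMM) scaling, which sets the total of each library so that most genes are level between libraries. CPM does not correct for transcript length, so levels are compared within a gene and never between genes. The TMM factors of these levels were set over all 96 libraries. Those of the tests were set over the libraries of each fit, 32 for comparisons with WT and 16 for interactions. A log2FC can therefore differ from the ratio of the levels shown. Zein transcripts took very different shares of the libraries, and at 16 DAP the mean TMM factor of a genotype was lower where that share was larger. A list of 10 starchy endosperm genes, mostly zeins, held 0.047% to 1.93% of reads at 16 DAP in genotypes with mutant *o2* and 7.75% to 14.6% in genotypes with normal *o2*. The TMM factors ran from 0.855 to 1.14 in the genotypes with mutant *o2* and from 0.618 to 0.922 in those with normal *o2* at that age. This order did not hold between normal and mutant *o2* at 8 DAP, and at 12 DAP it held in part. At 8 DAP genotypes with normal *o2* had the larger share (0.105% to 0.586%, against 0.0388% to 0.0792%) but factors of 1.127 to 1.416, against 1.098 to 1.316. At 12 DAP WT, *nkd1*, and *nkd2* had the largest sums of the list (67481, 65985, and 61087 CPM). They also had the lowest mean factors (0.811, 0.861, and 0.900). *nkd1 nkd2* departed from the order, since the list held 32860 CPM there and 653 CPM in *o2*, with mean factors of 1.028 and 1.014. When CPM was scaled by library size alone, the median gene of the triple mutant stood 0.75 above WT on the log2 scale at 16 DAP, against 0.01 with TMM. Results with library size alone are therefore given beside those with TMM, as values for the main calls and as counts for the others, and the part of the zein share in any one difference was not tested.

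A few libraries stood apart from their groups in *dek1* and *thk1* together. Replicate 1 of *nkd1 o2* at 12 DAP deviated from its group mean by -0.60 for *dek1* and by -0.67 for *thk1* on the log2 scale, the lowest of all 96 libraries for both genes, while *cr4* in it deviated by 0.01. Its depth (50532753 reads) and its share of reads on genes (84.2%) were ordinary. Replicate 1 of *nkd1* at 8 DAP was low for both genes as well, with deviations of -0.38 for *dek1* and -0.36 for *thk1*. Over the 96 libraries the deviations from group means of *dek1* and *thk1* went together (Pearson r = 0.75, and 0.69 over the 95 others without that replicate 1 of *nkd1 o2*), whereas those of *cr4* were little related to *dek1* (r = 0.17) or *thk1* (r = 0.04). These coefficients describe libraries that share depth and scaling and carry no test.

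**Figure D1:**
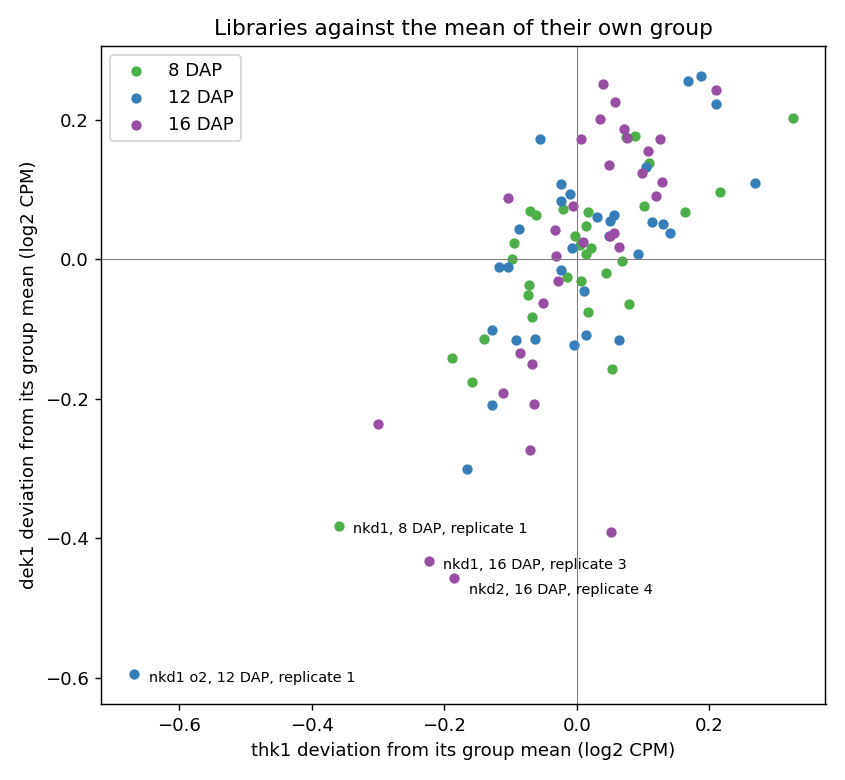
Deviation of each library from the mean of its own group in log2 CPM, *thk1* on the horizontal axis and *dek1* on the vertical axis, with 1 point for each of the 96 libraries coloured by age. Replicate 1 of *nkd1 o2* at 12 DAP lies at the lower left corner (-0.67 for *thk1* and -0.60 for *dek1*), and the points rise together (r = 0.75).

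The 3 genes varied in different ways over the 24 groups. *cr4* was mainly a gene of developmental time: timepoint took 84.8% of its sum of squares, genotype within timepoint 11.3%, and libraries within groups 3.92%. *dek1* was mainly a gene of genotype, with 58.4% for genotype and 27.2% for timepoint. The medians over all genes kept were 34.8% for timepoint, 31.5% for genotype, and 22.8% for libraries. These shares were taken with TMM and were not computed with library size alone. *thk1* was the steadiest of the 3, with group means between 165 and 317 CPM, a ratio of 1.92, against a ratio of 3.05 for *dek1* (68.3 to 208 CPM) and 4.83 for *cr4* (5.52 to 26.6 CPM). Set beside 27328 genes kept over the series, the SD of the group means in log2 CPM was 0.27 for *thk1* (percentile 12.8), 0.40 for *dek1* (percentile 28.3), and 0.67 for *cr4* (percentile 55.5), and the median gene had 0.60. Across the 24 group means with TMM *cr4* ran opposite to *thk1* (r = -0.88), and *dek1* went moderately with *thk1* (r = 0.54). Both are descriptions over groups that share a developmental course, and neither was computed with library size alone. On that scaling *thk1* in WT had means of 218, 212, and 188 CPM at 8, 12, and 16 DAP, while *cr4* had 28.6, 7.89, and 5.13 CPM. The rise of *thk1* from 8 DAP then passed only in *o2*.

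**Figure D2:**
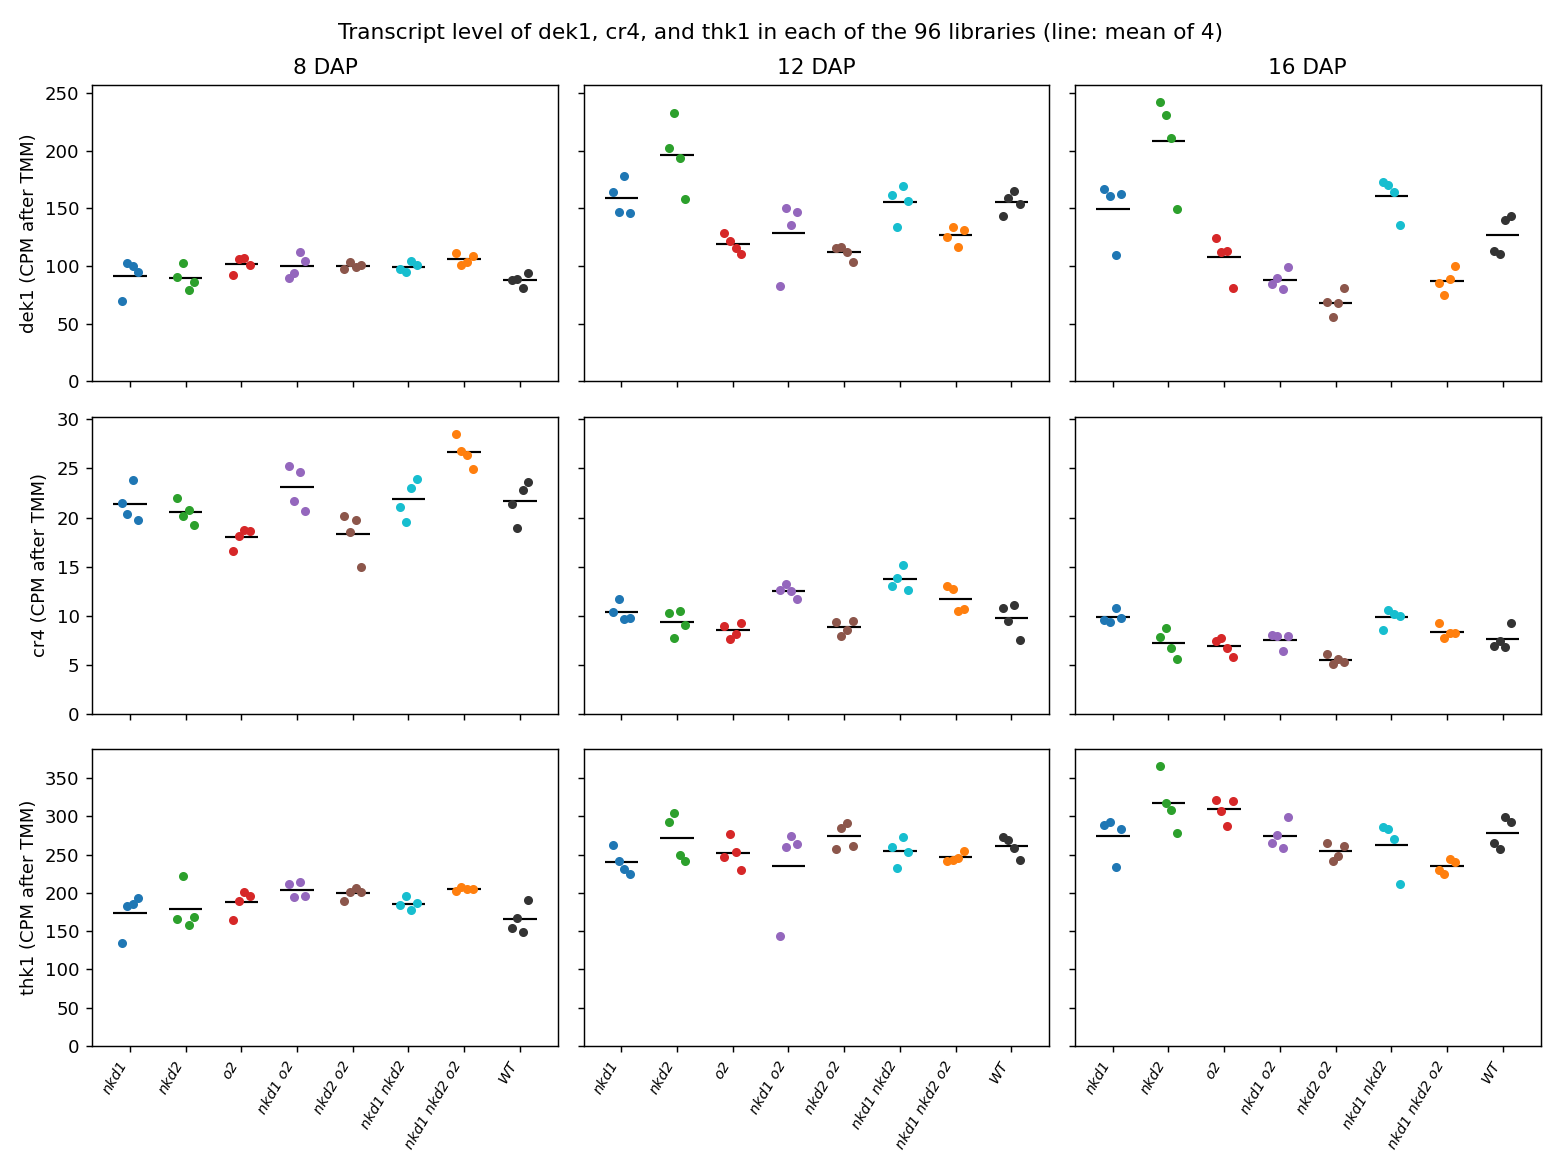
Transcript level of *dek1*, *cr4*, and *thk1* (rows, CPM after TMM) in every library at 8, 12, and 16 DAP (columns), by genotype with WT at the right. Points are libraries and lines are means of 4. At 16 DAP the *nkd2* libraries of *dek1* (149 to 242 CPM) all lie above WT (110.1 to 143 CPM) and the *nkd2 o2* libraries (56.0 to 80.6 CPM) all lie below it.

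In the 63 comparisons of a mutant with WT, 14 passed the test at an adjusted P below 0.05, 2 of 21 at 8 DAP, 5 of 21 at 12 DAP, and 7 of 21 at 16 DAP. *dek1* took 7 of them (1 higher, 6 lower), *cr4* 6 (3 higher, 3 lower), and *thk1* 1 (lower). The direction of the calls turned with the scaling. With library size alone 8 passed at 12 DAP, all higher, against 2 higher and 3 lower with TMM, and 11 were higher and 1 lower at 16 DAP, against 2 higher and 5 lower with TMM. The median gene stood 0.14 to 0.75 above WT with library size alone in the comparisons of those 19 higher calls. With TMM and pooled over the 7 mutants, 23.6% of the tests of all genes passed at 8 DAP, 25.3% at 12 DAP, and 30.3% at 16 DAP. The TMM counts of these 3 genes were therefore near or below those of genes at large. The share of all genes passed with library size alone is not given here, so the counts under that scaling cannot be set against genes at large. None of the 63 reached a log2FC beyond 1 or -1, the usual bound for a differentially expressed gene (DEG), by edgeR's quasi-likelihood test or by DESeq2, and the count at an unadjusted P below 0.05 was also 0. Over all genes, 8.06% of the tests gave a DEG at 8 DAP, 9.29% at 12 DAP, and 12.1% at 16 DAP.

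For the calpain gene *dek1* no difference from WT passed the test at 8 DAP, and later it passed lower than WT in 3 of the 4 genotypes with mutant *o2* at 12 DAP and in 3 at 16 DAP and higher in *nkd2* at 16 DAP. Of these 6 lower calls only that of *nkd2 o2* at 16 DAP also passed with library size alone. At 8 DAP none of the 7 mutants passed edgeR's test against WT (log2FC between -0.04 and 0.19, smallest adjusted P = 0.107), 1 of 7 was below 0.05 unadjusted, and DESeq2 called 0. The WT libraries had 87.8, 88.6, 81.0, and 93.7 CPM at that age. Replicate 1 of *nkd1* (69.4 CPM) was the lowest library of the timepoint.

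At 12 DAP *dek1* was lower than WT in 3 genotypes with mutant *o2*. The *o2* libraries had 128, 122, 115, and 111 CPM, against 143, 158, 165, and 154 CPM in WT. All 4 *o2* libraries were below all 4 WT libraries (log2FC = -0.36 ± 0.13 SE, adjusted P = 0.0346, where 28.6% of genes passed). In *nkd2 o2* the values were 115, 117, 112, and 103 CPM, again with no overlap with WT (log2FC = -0.45 ± 0.13, adjusted P = 0.0081, with 27.1% of genes passed). The triple mutant, at 125, 134, 116, and 132 CPM, was lower by a smaller amount (log2FC = -0.31, adjusted P = 0.0459, with 47.4% of genes passed). The remaining *o2* combination, *nkd1 o2*, had 83.0, 150.5, 135, and 146 CPM and did not pass, and its first library is the one described above. Scaled by library size alone, none of the 3 calls stood (log2FC = -0.06 with adjusted P = 0.745 for *o2*, -0.11 with 0.508 for *nkd2 o2*, and 0.14 with 0.385 for the triple mutant), and the groups overlapped. Each call was also lost when 1 replicate number was left out of every genotype, with adjusted P up to 0.187 for *o2* and 0.262 for the triple mutant (both without replicate 3) and 0.0712 for *nkd2 o2* (without replicate 3). Under library-size scaling, *nkd2* (0.49, adjusted P = 0.00929) and *nkd1 nkd2* (0.34, adjusted P = 0.033) passed higher at this age, where the median gene stood 0.14 and 0.34 above WT.

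At 16 DAP the genotypes spread further. The *nkd2* libraries had 242, 231, 211, and 149 CPM of *dek1*, against 113, 110.1, 140.0, and 143 CPM in WT. All 4 were above the highest WT library, and the fourth only just (mean 208 ± 41.5 CPM in *nkd2* and 127 ± 17.4 CPM in WT, SD, n = 4 each). The log2FC was 0.72 ± 0.15 (adjusted P = 0.00157), in a comparison in which 13.8% of genes passed and 6.75% were higher. With library size alone it was 0.90 (adjusted P = 1.6e-04), but with TMM it did not pass without replicate 1 (0.58, adjusted P = 0.0688) or replicate 2 (0.60, adjusted P = 0.0569).

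The double mutant *nkd2 o2* lay on the other side of WT. It had 68.5, 56.0, 67.9, and 80.6 CPM of *dek1* at 16 DAP, with every library below the lowest WT library (log2FC = -0.91 ± 0.15, adjusted P = 2.9e-05), in a comparison in which 33.1% of genes passed. This was the lowest group mean of *dek1* in the series (68.3 ± 10.0 CPM). The call held without any 1 replicate number (log2FC between -0.96 and -0.86) and with library size alone (log2FC = -0.46, adjusted P = 0.0167). The *nkd1 o2* libraries (84.1, 89.5, 80.1, and 99.1 CPM) and the triple mutant libraries (85.0, 75.2, 89.1, and 99.8 CPM) were also all below WT with TMM, with log2FC = -0.53 (adjusted P = 0.00517, 41.9% of genes passed) and -0.56 (adjusted P = 0.00266, 52.3% of genes passed). Neither passed with library size alone, at 0.04 (adjusted P = 0.856) for *nkd1 o2* and 0.19 (adjusted P = 0.299) for the triple mutant. Without replicate 3 the *nkd1 o2* difference was -0.44 (adjusted P = 0.0631).

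The other 3 mutants did not pass for *dek1* at 16 DAP, with log2FC between -0.25 and 0.36. The *nkd1 nkd2* libraries, at 173, 170.5, 164, and 136 CPM, were nearest to a call (adjusted P = 0.0611), and with library size alone this difference passed (0.70, adjusted P = 5.5e-04). In order of mean, *nkd2* (208 CPM) stood first, *nkd1 nkd2* (161 CPM), *nkd1* (149.8 CPM), WT (127 CPM), and *o2* (107 CPM) followed, and *nkd1 o2* (88.2 CPM), the triple mutant (87.3 CPM), and *nkd2 o2* (68.3 CPM) came last, with overlapping libraries between all neighbours in this order. An overall test among the 8 genotypes did not pass for *dek1* at 8 DAP, where it did with library size alone, and passed at 12 DAP (adjusted P = 3.0e-05) and 16 DAP (adjusted P = 8.0e-10), as it did for 73.7% and 79.8% of genes.

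**Figure D3:**
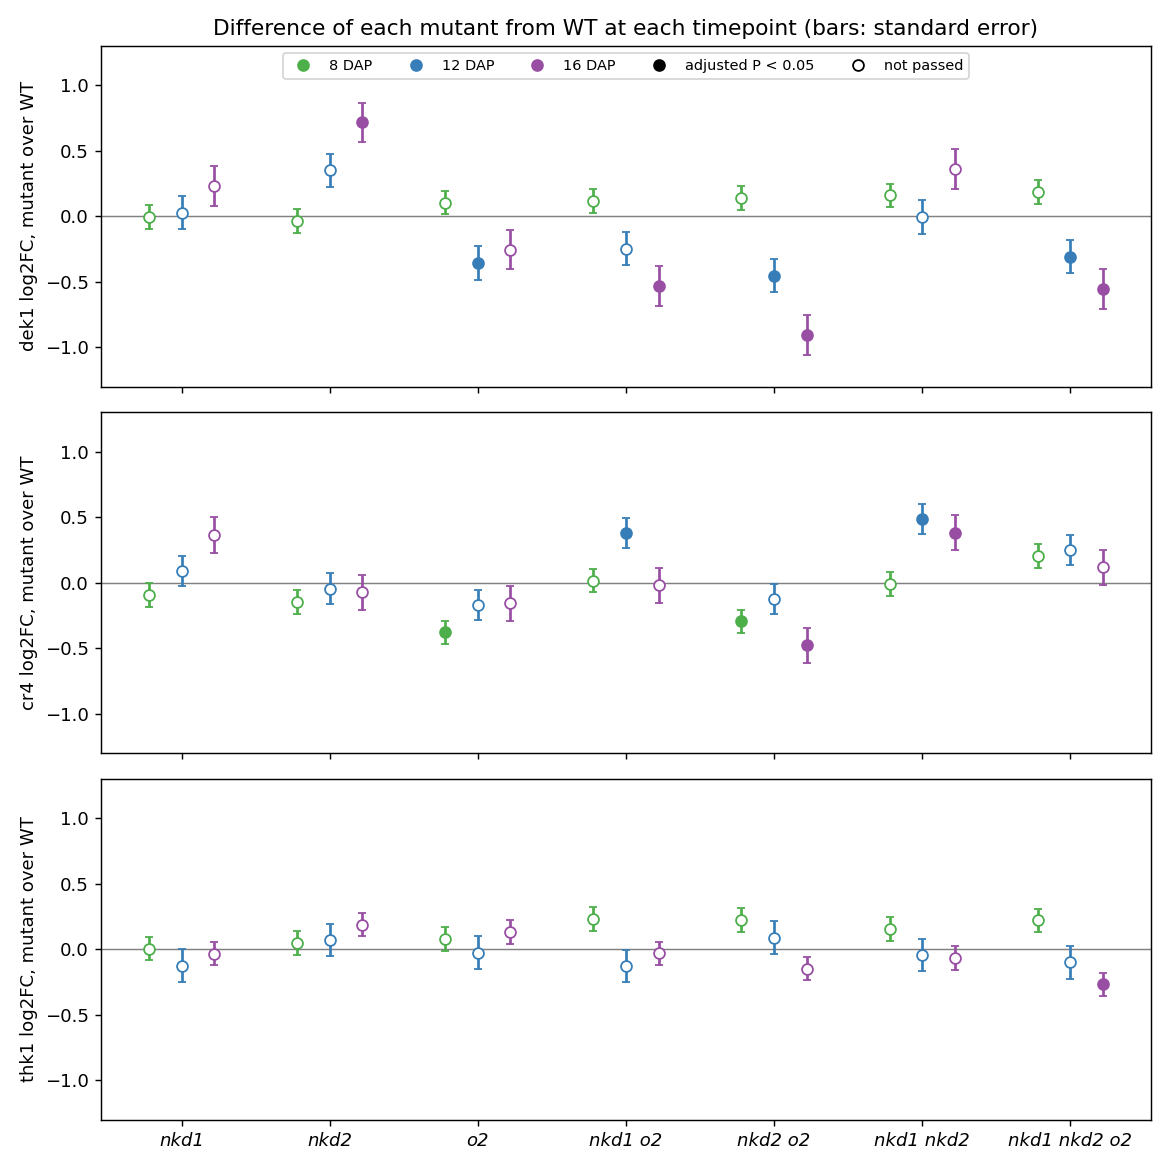
Difference of each mutant from WT in log2FC (vertical axes) for *dek1*, *cr4*, and *thk1* (panels) at 8, 12, and 16 DAP (colours), with bars for the standard error and filled points for an adjusted P below 0.05. *dek1* spreads most, between -0.91 in *nkd2 o2* and 0.72 in *nkd2* at 16 DAP, and *thk1* stays between -0.27 and 0.23.

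The receptor-like kinase gene *cr4* was lower in *o2* at 8 DAP and higher in *nkd1 nkd2* later on. At 8 DAP the *o2* libraries had 16.6, 18.1, 18.7, and 18.6 CPM, against 21.4, 18.9, 22.8, and 23.7 CPM in WT. The highest *o2* library was just under the lowest WT library (log2FC = -0.38 ± 0.09, adjusted P = 0.00131), in the comparison with the largest share of genes passed at that age, 43.9%. The call held without any 1 replicate number and with library size alone (log2FC = -0.51, adjusted P = 4.9e-05). The *nkd2 o2* libraries had 20.2, 18.5, 19.8, and 14.9 CPM and overlapped WT (log2FC = -0.29, adjusted P = 0.0285, 13.0% of genes passed). That call was lost without replicate 4, the lowest of them (log2FC = -0.18, adjusted P = 0.163), without replicates 1 or 3, in a fit of these 2 genotypes alone (adjusted P = 0.166), and in a fit of all 96 libraries (adjusted P = 0.138).

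In the triple mutant *cr4* had its highest group mean of the series at 8 DAP, 28.5, 26.8, 26.4, and 24.9 CPM in the 4 libraries. On the scaling of the levels all 4 were above the highest WT library (23.7 CPM). In edgeR's test, with TMM factors set over the 32 libraries of that age, the difference did not pass (log2FC = 0.20, adjusted P = 0.0699).

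By 12 DAP *cr4* had fallen everywhere, and the *nkd1 nkd2* libraries kept the most, with 13.1, 13.8, 15.2, and 12.7 CPM, against 10.8, 9.43, 11.1, and 7.53 CPM in WT. The groups did not overlap (log2FC = 0.49 ± 0.12, adjusted P = 0.00173, 32.2% of genes passed), and the call held without any 1 replicate number and with library size alone (log2FC = 0.83, adjusted P = 7.0e-06). The *nkd1 o2* libraries (12.6, 13.2, 12.5, and 11.7 CPM) were also all above WT (log2FC = 0.38, adjusted P = 0.0136, 27.6% of genes passed). This difference did not pass without replicate 2 (0.34, adjusted P = 0.0812) or replicate 4 (0.30, adjusted P = 0.104), and replicate 4 was the lowest WT library. It did not pass either in a fit of these 2 genotypes alone (adjusted P = 0.0524). With library size alone it passed (0.699, adjusted P = 6.0e-05), and so did the triple mutant (0.696, adjusted P = 3.7e-05). The median gene stood 0.325 and 0.412 above WT in these comparisons.

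At 16 DAP, when *cr4* was lowest, *nkd1 nkd2* still had the higher values beside *nkd1*, with 8.53, 10.6, 10.2, and 9.97 CPM, against 6.94, 7.39, 6.84, and 9.27 CPM in WT. These groups overlapped (log2FC = 0.38, adjusted P = 0.0264, 34.7% of genes passed), and the call was lost without replicates 1, 2, or 3 (adjusted P up to 0.166) and in a fit of these 2 genotypes alone (adjusted P = 0.0603). Scaled by library size alone, the difference was 0.72 (adjusted P = 1.4e-04), and *nkd1 o2* (0.55, adjusted P = 0.00142) and the triple mutant (0.86, adjusted P = 4.9e-06) passed higher as well. The *nkd2 o2* libraries had 6.13, 5.12, 5.58, and 5.24 CPM, all below WT (log2FC = -0.48, adjusted P = 0.00679), but with library size alone the difference was -0.02 (adjusted P = 0.93), and it did not pass without replicate 2 (-0.46, adjusted P = 0.051) or replicate 4 (-0.34, adjusted P = 0.0673). The overall test among genotypes passed for *cr4* at all 3 timepoints (adjusted P = 7.8e-05 at 8 DAP, where 68.4% of genes passed, 3.0e-05 at 12 DAP, and 2.6e-05 at 16 DAP).

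The CCR4-NOT scaffold gene *thk1* passed against WT in 1 of 21 comparisons with TMM, where it was lower. Under library-size scaling, it passed in 9 of 21, all higher, 3 at 12 DAP and 6 at 16 DAP, in comparisons in which the median gene stood 0.19 to 0.75 above WT. No share of all genes passed under that scaling is given to set beside this count. Examples at 16 DAP are *o2* (0.55, adjusted P = 2.0e-05) and *nkd1 o2* (0.54, adjusted P = 2.1e-05). By edgeR's test 0 of 7 mutants passed at 8 DAP, where 3 of 7 were below 0.05 unadjusted, and 0 of 7 at 12 DAP, where none was, and DESeq2 called 0 at both ages. With TMM the log2FC over all 21 comparisons lay between -0.27 and 0.23. At 8 DAP the means of all 7 mutants were above that of WT with TMM, but *nkd1* (204 CPM), *nkd2* (212 CPM), and *o2* (209.9 CPM) were below WT (218 CPM) with library size alone. The WT libraries had 154, 167, 149, and 191 CPM with TMM, and the triple mutant was the tightest group, with 202, 207, 206, and 205 CPM.

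The 1 call for *thk1* was in the triple mutant at 16 DAP, with 230.2, 224, 244, and 240.4 CPM, against 266, 257, 299.8, and 292 CPM in WT. The groups did not overlap (log2FC = -0.27 ± 0.09, adjusted P = 0.013, 52.3% of genes passed). With library size alone the triple mutant was higher than WT (log2FC = 0.48, adjusted P = 8.7e-05), which is less than the 0.75 of the median gene, so the sign of this difference depended on the scaling. Without replicate 3 it was -0.25 (adjusted P = 0.0563). The highest group mean of *thk1* was in *nkd2* at 16 DAP (366, 317, 309, and 278 CPM), which overlapped WT and did not pass. The overall test among genotypes passed for *thk1* at 16 DAP (adjusted P = 0.001) and not at 8 or 12 DAP, though with library size alone it passed at all 3 ages.

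Over time *cr4* fell in every genotype. In WT its mean was 21.7 ± 2.07 CPM at 8 DAP, 9.71 ± 1.63 CPM at 12 DAP, and 7.61 ± 1.13 CPM at 16 DAP (SD, n = 4 each). Between 8 and 12 DAP it fell in 8 of 8 genotypes (log2FC between -1.19 and -0.68), as did 26.0% of all genes pooled over genotypes. Between 8 and 16 DAP it fell in 8 of 8 (between -1.73 and -1.11), as did 32.8% of all genes. No library at 12 or 16 DAP reached the lowest of the 8 DAP libraries within any genotype. Scaled by library size alone, the fall was steeper, and all 8 genotypes passed for both spans. Between 12 and 16 DAP it fell in 7 of 8 genotypes (log2FC between -0.72 and -0.30, with 18.0% of all genes falling), the exception being *nkd1* (10.3, 11.7, 9.66, and 9.80 CPM at 12 DAP and 9.57, 9.38, 10.8, and 9.76 CPM at 16 DAP, log2FC = -0.07). Under library-size scaling, *nkd1* fell too (-0.50, adjusted P = 2.4e-04). The later falls with TMM were lost without 1 replicate number in WT (adjusted P up to 0.197, without replicate 3, and also without replicate 1), *nkd2* (0.121, without replicate 3), and *o2* (up to 0.177, without replicate 4, and also without replicates 1 or 3).

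The courses of *dek1* split by genotype. Between 8 and 12 DAP it rose in WT (log2FC = 0.82), *nkd1* (0.80), *nkd2* (1.14), *nkd1 nkd2* (0.64), and *nkd1 o2* (0.37), beside 25.7% of all genes, and the other 3 genotypes with mutant *o2* did not pass (0.16 to 0.25). Between 12 and 16 DAP it fell in *nkd1 o2* (log2FC = -0.55), *nkd2 o2* (-0.72), and the triple mutant (-0.54), beside 18.0% of all genes, and no other genotype passed. Over the whole span it ended higher than at 8 DAP in WT (0.53), *nkd1* (0.71), *nkd2* (1.22), and *nkd1 nkd2* (0.69), beside 30.6% of all genes. It ended lower in *nkd2 o2* (-0.56) and the triple mutant (-0.28), beside 32.8% of all genes. The rise between 8 and 12 DAP rested on the scaling except in *nkd1* and *nkd2*: with library size alone only these passed (0.35 and 0.73), and WT did not (0.12), while the median gene of WT moved by -0.74 instead of -0.04. The 3 falls between 12 and 16 DAP passed under both scalings (between -0.90 and -0.51 with library size alone), but with library size alone WT (-0.56), *nkd1* (-0.50), and *o2* (-0.33) fell as well. Over the whole span *dek1* fell in WT with library size alone (-0.44, adjusted P = 0.00236) and in *nkd1 o2* (-0.49, adjusted P = 9.1e-04), and the rises in *nkd1* (-0.15) and *nkd1 nkd2* (0.08) did not pass. Without 1 replicate number the rise in *nkd1 o2* between 8 and 12 DAP (0.25, adjusted P = 0.186 without replicate 2, and 0.30, adjusted P = 0.0678 without replicate 4) and the whole-span fall in the triple mutant (adjusted P = 0.134, 0.183, and 0.0995 without replicates 1, 2, and 3) did not pass.

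*thk1* rose between 8 and 12 DAP in 7 of 8 genotypes (log2FC between 0.27 and 0.66), as did 25.7% of all genes pooled over genotypes. WT was at 165 ± 18.8 CPM at 8 DAP, 261 ± 13.5 CPM at 12 DAP, and 279 ± 20.4 CPM at 16 DAP. The exception, *nkd1 o2*, held the low replicate 1 (143.5 CPM, beside 259.9, 274.9, and 264.0 CPM at 12 DAP), and without replicate 1 of every genotype it rose too (log2FC = 0.40, adjusted P = 6.0e-04). The rise in the triple mutant did not pass without replicates 2, 3, or 4 (adjusted P up to 0.0958). Between 12 and 16 DAP *thk1* passed in *o2* alone (log2FC = 0.30, adjusted P = 0.0217), while 16.0% of all genes rose, and this was lost without replicate 3 (0.33, adjusted P = 0.0504) or replicate 4 (0.22, adjusted P = 0.193). With library size alone *o2* did not pass for that span (0.11, adjusted P = 0.429) and *nkd2 o2* fell (-0.29, adjusted P = 0.0259). Over the whole span it rose in 7 of 8 genotypes (0.35 to 0.83), as did 30.6% of all genes, and the triple mutant did not pass (0.20). Scaled by library size alone, the rise between 8 and 12 DAP passed only in *o2* (0.28) and WT was at -0.04, and over the whole span too it passed only in *o2* (0.40).

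**Figure D4:**
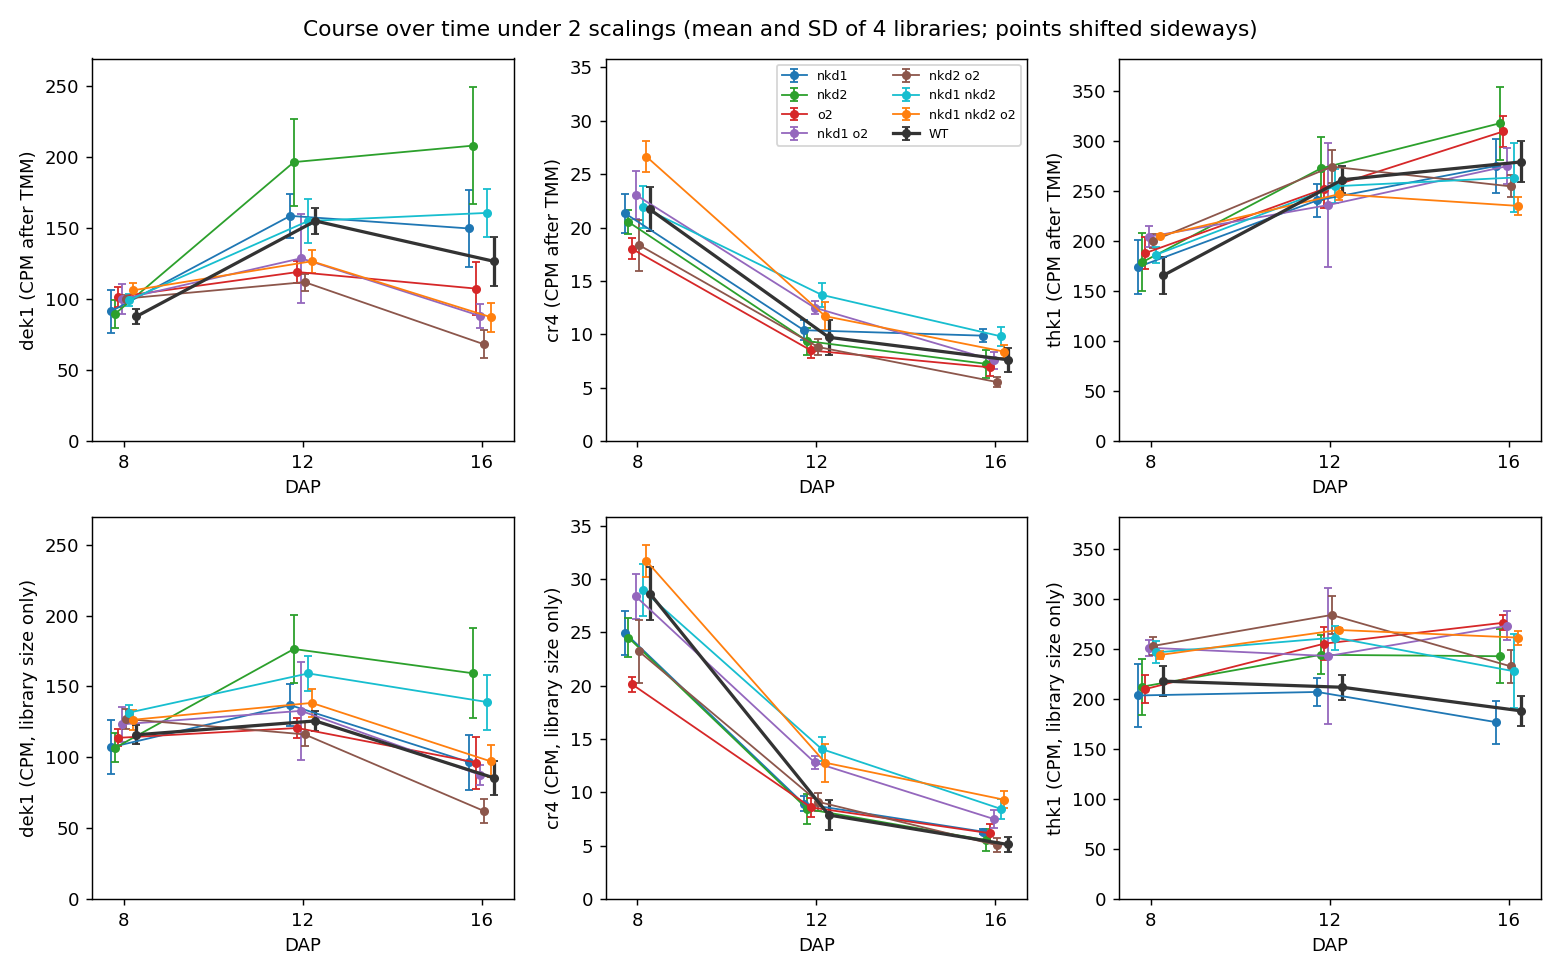
Mean and SD of 4 libraries at 8, 12, and 16 DAP for each genotype, with CPM after TMM in the upper row and CPM with library size alone in the lower row, for *dek1*, *cr4*, and *thk1* from left to right. *cr4* falls in both rows, whereas WT *thk1* climbs to 279 CPM at 16 DAP in the upper row and ends at 188 CPM, under its 218 CPM of 8 DAP, in the lower row.

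Whether a mutant's course differed from that of WT was tested as the difference of the 2 changes. Of 21 tests for the change between 8 and 12 DAP, 6 passed, and of 21 between 8 and 16 DAP, 6 passed, 7 of these 12 for *dek1*, 4 for *thk1*, and 1 for *cr4*. Pooled over the mutants, 17.5% of the tests of all genes passed for the earlier span and 22.1% for the whole span. Between 12 and 16 DAP edgeR's test passed 0 of 21, beside 9.73% over all genes, 4 were below 0.05 unadjusted, and no other tool was run on these differences. The largest was that of *dek1* in *nkd2 o2* between 8 and 16 DAP, where its change minus that of WT was -1.09 ± 0.18 on the log2 scale (adjusted P = 5.0e-06, 19.7% of genes passed). It held without any 1 replicate number and, at -0.59 (adjusted P = 0.00986), with library size alone. In *nkd2* alone the change of *dek1* over the same span was 0.69 higher than that of WT (adjusted P = 0.00757, 10.3% of genes passed), and this was lost without replicate 1 (0.57, adjusted P = 0.102) or replicate 2 (0.64, adjusted P = 0.0927). Between 8 and 12 DAP the change of *dek1* minus that of WT was -0.59 in *o2* (24.2% of genes passed), -0.66 in *nkd2 o2* (13.3%), and -0.57 in the triple mutant (34.9%), and between 8 and 16 DAP it was -0.71 in *nkd1 o2* (30.1%) and -0.81 in the triple mutant (40.7%). None of these 5 passed with library size alone (between -0.25 and 0.06), and without replicate 3 the 3 earlier ones (adjusted P between 0.0935 and 0.141) and that of *nkd1 o2* (0.0936) did not pass either. Without replicate 2 those of *o2* (0.0577) and *nkd2 o2* (0.0521) between 8 and 12 DAP were lost as well. For *cr4* the 1 call with TMM was a shallower fall in *nkd1 nkd2* between 8 and 12 DAP (0.48, adjusted P = 0.0191, 16.9% of genes passed), which was lost without replicate 2 (0.47, adjusted P = 0.0997) or replicate 3 (0.50, adjusted P = 0.0764). Under library-size scaling, the fall of *cr4* between 8 and 12 DAP was shallower than that of WT also in *o2* (0.63, adjusted P = 0.00127), *nkd1 o2* (0.71, adjusted P = 4.1e-04), *nkd2 o2* (0.51, adjusted P = 0.0118), and the triple mutant (0.55, adjusted P = 0.00379), and between 8 and 16 DAP 4 mutants passed in that direction. The *thk1* call in *nkd1 o2* between 8 and 12 DAP (-0.45, adjusted P = 0.0261, 17.1% of genes passed) did not pass without replicate 1 of every genotype, which removes the low library (-0.20, adjusted P = 0.399), nor with that library kept and replicate 2 (-0.51, adjusted P = 0.066) or replicate 3 (-0.47, adjusted P = 0.108) left out.

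Because all combinations of the mutations were present, it could be tested whether the effect of a double mutant was the sum of its parts on the log2 scale. Such an interaction passed in 5 of 36 tests, 2 of 12 at 8 DAP and 3 of 12 at 16 DAP. At 12 DAP edgeR passed 0 of 12, with 4 below 0.05 unadjusted and 1 called by DESeq2. Over all genes 24.1% of such tests passed at 8 DAP, 13.6% at 12 DAP, and 21.1% at 16 DAP.

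The largest was for *dek1* between *nkd2* and *o2* at 16 DAP. The single mutant *nkd2* was above WT and *o2* did not pass against it (124, 112, 113, and 80.9 CPM), yet the double mutant had the lowest values of all. The interaction was -1.37 ± 0.22 on the log2 scale (adjusted P = 3.1e-04), so the double mutant had 0.386 times the level that the sum of the single effects would give, in a test that 21.8% of genes passed. It was -1.53 (adjusted P = 1.1e-04) with library size alone and lay between -1.76 and -1.15 without any 1 replicate number, passing in each case. *thk1* had an interaction of the same sign between the same mutations, with 266, 242, 249, and 261 CPM in *nkd2 o2*, 366, 317, 309, and 278 CPM in *nkd2*, 322, 308, 288, and 320.2 CPM in *o2*, and 266, 257, 299.8, and 292 CPM in WT. The size was -0.47 ± 0.12 (adjusted P = 0.00931), and it did not pass without replicate 1 (-0.37, adjusted P = 0.0879) or replicate 2 (-0.41, adjusted P = 0.113). For *dek1* the interaction of *o2* with the *nkd1 nkd2* pair was -0.66 (adjusted P = 0.0162, 23.5% of genes passed), and it was lost without replicates 1, 2, or 3 (adjusted P up to 0.186).

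At 8 DAP the interactions were those of *cr4* and had the opposite sign. The level of *cr4* was lower in *o2* than in WT but not lower in *nkd1 o2* than in *nkd1*. The *nkd1 o2* libraries had 25.3, 21.7, 24.6, and 20.7 CPM, *nkd1* had 21.5, 20.3, 23.9, and 19.7 CPM, *o2* had 16.6 to 18.7 CPM, and WT had 18.9 to 23.7 CPM. The interaction was 0.52 ± 0.12 (adjusted P = 0.00603, 26.7% of genes passed), and it was lost without replicate 1 (0.37, adjusted P = 0.109). The triple mutant, compared with *nkd1 nkd2*, *o2*, and WT, gave 0.61 ± 0.11 (adjusted P = 0.00155, 15.8% of genes passed), which held without any 1 replicate number (0.52 to 0.62). The 5 interactions that passed also passed with library size alone, with the same sign, and 3 more passed at 8 DAP and 2 more at 12 DAP.

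**Figure D5:**
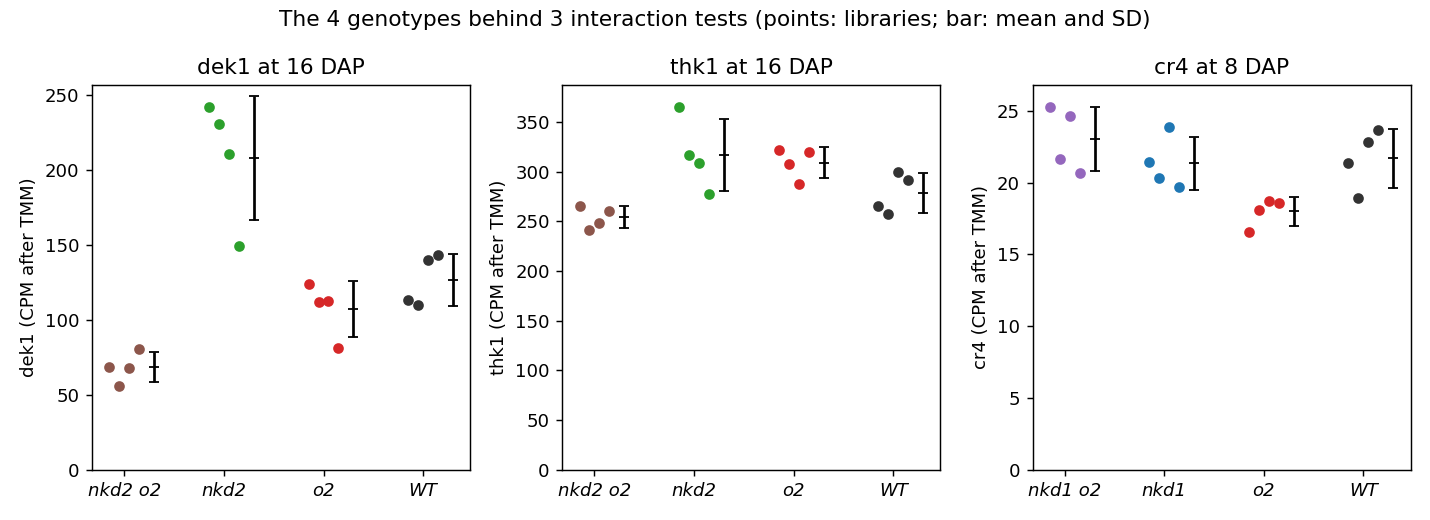
Levels (CPM after TMM) in the 4 genotypes behind 3 interaction tests, with points for libraries and bars for the mean and SD of 4. For *dek1* at 16 DAP the double mutant *nkd2 o2* (56.0 to 80.6 CPM) lies below all libraries of *nkd2*, *o2*, and WT, for *thk1* at 16 DAP it lies below all *nkd2* and *o2* libraries, and for *cr4* at 8 DAP *o2* alone is low.

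Genes with a course most like each member over the 24 group means were sought in the 13590 genes that averaged 5 CPM or more, and the first 3 by Pearson r are given as a description. For *dek1* they were Zm00001d053697 (r = 0.90), Zm00001d042191 (0.88), and Zm00001d043578 (0.87). For *cr4* they were Zm00001d013430, Zm00001d035492, and Zm00001d048055 (0.98 each), and for *thk1* Zm00001d030239 (0.97), Zm00001d053251 (0.97), and Zm00001d030026 (0.96). The names of these genes are not given in the sources used here. The likeness of *cr4* and *thk1* to other genes was closer than that of *dek1*.

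On the list of other aleurone regulators, 5 genes could be matched by identifier, the 3 mutated genes and 2 more. The identifier of *hb75* came from the study of these same libraries. That study had already reported it higher in *nkd1 nkd2* at 16 DAP, so its calls here are not independent of that report. The homeobox gene *hb75* passed higher in 1 of 7 mutants at 8 DAP, in 2 at 12 DAP, and in 2 at 16 DAP, and it passed lower in 1 at 12 DAP and in 2 at 16 DAP. Its higher calls at 12 and 16 DAP were in the double mutant *nkd1 nkd2* (log2FC = 1.22 and 1.76) and in the triple mutant (1.23 and 1.61). The anthocyanin regulator *c1*, which is active in the aleurone, passed lower in 3 of 7 mutants at 12 DAP and 3 of 7 at 16 DAP, all with mutant *o2*, on few reads. WT itself had only 0 to 33 reads of *c1* per library at 12 DAP and 0 to 23 at 16 DAP. Pooled over the 7 mutants, 23.6%, 25.3%, and 30.3% of the tests of all genes passed in either direction at 8, 12, and 16 DAP. Of the mutated genes, *nkd2* passed lower in 6 of 7 mutants at 12 DAP and at 16 DAP, so also in genotypes with normal *nkd2*. It had 10.3 CPM in *o2* at 12 DAP, against 69.65 CPM in WT. At 16 DAP *nkd1* had 626 CPM in *o2* and 118 CPM in *nkd1 o2*, against 139 CPM in WT. The calls of these regulators are given with TMM only.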

How the data were processed

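Endosperm mRNA was sequenced in 96 libraries. Per the labels and the study's methods, the authors mapped the reads to the B73 RefGen_v4 genome with HISAT2 2.1.0, sorted them with SAMtools 1.9, and deposited raw read counts per gene from HTSeq 0.11.1, with 46430 genes and 5 lines that name no gene, which were left out of totals and tests. The reads came from W22, so they were counted on another inbred's gene models. The counting mode and strand setting are not given in the sources used here, so reads of overlapping or antisense genes cannot be told apart. StringTie 1.3.6 is also listed in the submitters' processing notes.

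Here the counts were analysed with edgeR 4.0.16 in R 4.3.3 and, for tables and plots, pandas 2.3.3, numpy 2.4.6, and matplotlib 3.10.9. Each test was edgeR's quasi-likelihood test with TMM scaling and the edgeR filter on low counts, fitted on the whole table, with P-values adjusted by Benjamini-Hochberg over every gene in the fit and a threshold of 0.05. A DEG also had a log2FC beyond 1. Mutants were compared with WT in the 32 libraries of a timepoint, changes over time in all 96 libraries, and interactions in the 16 libraries of the 4 genotypes concerned. Levels are CPM with TMM factors over the 96 libraries, and log2 levels used a prior count of 2. The genes named are the 3 members, the regulators on a list of aleurone genes, and the 3 genes with the closest course to each member.

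Alternatives were DESeq2 1.42.0, its size factors, no low-count filter, a replicate block, the 20 most abundant genes left out of library sizes, fits on other sets of libraries, and each replicate number left out of all genotypes in turn. Scaling by library size alone was added after seeing the data. The fits were tested on simulated counts. The members and lists were chosen with earlier results of these data known. No 2 libraries of a group had near-identical counts. Libraries are pools from separate ears. The authors' counts were not corrected for gene length. Lists for the CCR4-NOT complex, the CR4 family, and marker genes of aleurone, transfer layer, embryo surrounding region, embryo, and dividing cells were not used, since fewer than 3 of their genes could be matched by identifier.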

Additional observations from a re-analysis of the deposited data

Results flagged for a closer look

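In 5 of 72 groups of 4 libraries, 1 library was farther from the others than Dixon's criterion at 95% allows, and chance gives about 1 in 20. For *dek1* it was replicate 3 of *nkd1* at 16 DAP (109.4 CPM, beside 161.0, 162.2, and 166.6 CPM). For *cr4* it was replicate 3 of *nkd1 o2* at 16 DAP (6.362 CPM, beside 7.917, 7.969, and 7.975 CPM). For *thk1* it was replicate 1 of *nkd1* at 8 DAP (134.2 CPM, beside 183.0, 185.6, and 192.7 CPM), replicate 2 of *nkd2* at 8 DAP (221.6 CPM, beside 158.4, 165.5, and 168.0 CPM), and replicate 1 of *nkd1 o2* at 12 DAP (143.5 CPM, beside 259.9, 264.0, and 274.9 CPM).

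With TMM the course of a gene over time differed between a mutant and WT in 12 tests of the difference itself (edgeR's quasi-likelihood test, Benjamini-Hochberg adjusted). Of these, 9 did not pass with library size alone, among them all 4 of *thk1*. Pooled over the mutants, 17.5% of such tests of all genes passed between 8 and 12 DAP and 22.1% between 8 and 16 DAP. Between 8 and 12 DAP the change of *dek1* minus that of WT was -0.594 in *o2*, -0.663 in *nkd2 o2*, and -0.567 in the triple mutant. Over the same span it was -0.45 in *nkd1 o2* and -0.392 in the triple mutant for *thk1*, and 0.481 in *nkd1 nkd2* for *cr4*. Between 8 and 16 DAP it was 0.689 in *nkd2*, -0.711 in *nkd1 o2*, -1.085 in *nkd2 o2*, and -0.812 in the triple mutant for *dek1*, and -0.405 in *nkd2 o2* and -0.556 in the triple mutant for *thk1*. For *thk1* the difference in the triple mutant to 12 DAP did not pass without replicates 1, 2, or 3 (adjusted P up to 0.172), nor did that in *nkd2 o2* to 16 DAP without replicates 2, 3, or 4 (adjusted P up to 0.321).

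The effect of *o2* differed between genotypes with and without an *nkd* mutation in 5 interaction tests. Over all genes 24.1% of interaction tests passed at 8 DAP and 21.1% at 16 DAP. The interaction term, the difference between these effects of *o2*, was 0.523 with *nkd1* and 0.606 with *nkd1 nkd2* for *cr4* at 8 DAP. At 16 DAP the term was -1.372 with *nkd2* and -0.657 with *nkd1 nkd2* for *dek1*, and -0.468 with *nkd2* for *thk1*.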

How the results depend on the processing

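Scaling changed more than any other choice. Of 89 called results, 54 kept direction and call with library size alone, 19 lost the call, and 16 reversed. The cause of these changes was not tested. Shares of all genes passed are given with TMM only, so the counts with library size alone have none beside them. Reversed log2FC values with library size alone were, against WT, 0.14 (*dek1*, triple mutant, 12 DAP), 0.038 (*dek1*, *nkd1 o2*, 16 DAP), 0.19 (*dek1*, triple mutant, 16 DAP), and 0.48 (*thk1*, triple mutant, 16 DAP). Between 8 and 12 DAP *thk1* in WT was at -0.042. Between 8 and 16 DAP *dek1* was at -0.44 in WT and -0.15 in *nkd1*, and *thk1* at -0.21 in WT, -0.20 in *nkd1*, -0.12 in *nkd2 o2*, and -0.12 in *nkd1 nkd2*. Differences of these changes from WT were 0.012 for *dek1* and 0.18 for *thk1* in the triple mutant between 8 and 12 DAP, and 0.06 for *dek1* and 0.31 for *thk1* in the triple mutant and 0.091 for *thk1* in *nkd2 o2* between 8 and 16 DAP. Counts of tests passed with library size alone were 8 of 21 against WT at 12 DAP (5 with TMM), 12 of 21 at 16 DAP (7), 3 of 3 among genotypes at 8 DAP (1), 11 of 24 for changes between 8 and 12 DAP (20), and 5 of 12 and 2 of 12 for interactions at 8 and 12 DAP (2 and 0).

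DESeq2 kept 75 of 77 calls and passed 1 interaction at 12 DAP, against 0 by edgeR. With no low-count filter 81 of 89 calls remained, with DESeq2 size factors 84, and with the 20 most abundant genes left out 71 of 72. With all 96 libraries in one fit 4 of 21 passed against WT at 8 DAP, against 2, and 2 of 14 calls against WT were lost, *cr4* in *nkd2 o2* at 8 DAP (-0.24, adjusted P = 0.138) and *dek1* in the triple mutant at 12 DAP (-0.29, adjusted P = 0.0554). A fit of only the 2 genotypes compared lost 3 of 14, all of *cr4*, in *nkd2 o2* at 8 DAP (-0.29, adjusted P = 0.166), *nkd1 o2* at 12 DAP (0.38, adjusted P = 0.0524), and *nkd1 nkd2* at 16 DAP (0.38, adjusted P = 0.0603). The difference of the *thk1* change in *nkd1 o2* to 12 DAP did not pass with no low-count filter (adjusted P = 0.0511) or with DESeq2 size factors (adjusted P = 0.0524). Leaving out 1 replicate number lost 11 to 22 of 89 calls. Tests passed then were 1 to 2, 1 to 5, and 4 to 8 of 21 against WT at 8, 12, and 16 DAP, 8 to 11 of 24 for changes between 12 and 16 DAP, 0 to 6 and 4 to 6 of 21 for differences of change to 12 and to 16 DAP, and 1 to 2, 0 to 2, and 1 to 6 of 12 for interactions at 8, 12, and 16 DAP. The likeness of *cr4* to Zm00001d013430 and Zm00001d035492 was 0.949 each over 96 libraries, and that of *thk1* to Zm00001d030239 was 0.930.

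Replicate numbers did not pair libraries. The correlation of same-numbered libraries' deviations ran from -0.43 to 0.31 over 84 pairs, 10 were over 0.1, and 21 of 84 mutant libraries were nearest to their own number. A replicate block lost 2 of 89 calls, both of *dek1* in the triple mutant, against WT at 12 DAP (-0.31, adjusted P = 0.0536) and between 8 and 16 DAP (-0.28, adjusted P = 0.0531), and gave 2 of 3 passed among genotypes at 8 DAP, against 1.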

Other observations

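At 8 DAP, across the 8 genotype means, *dek1* and *thk1* were ordered alike (r = 0.90), and less so at 12 DAP (r = 0.21) and 16 DAP (r = 0.56). These are descriptions over 8 means with shared scaling. The names of the genes most like each member, and any shared role, were not examined.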
